A study of Mus musculus with 12 samples.

Results

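The effect of lithium on microRNA (miRNA) levels was followed in preadipocytes of 3T3-L1, a mouse fibroblast-like line widely used as a culture model of fat cell formation. All arrays titled as lithium-treated or untreated preadipocytes were taken, which gave 6 of the 12 arrays of the series, 3 in each group. The untreated group is plain 3T3-L1 preadipocytes, kept like all cells of the series in medium with 10% serum. The lithium group is the same line with lithium chloride at 25 mM in the medium. The other 6 arrays hold cells induced with MDI, a differentiation medium of 3-isobutyl-1-methylxanthine, dexamethasone and insulin, without lithium (n = 3) and with lithium (n = 3). Per the labels, MDI cells, titled mature adipocytes, had 3 days of MDI, 2 days of insulin alone and 2 days of plain medium, ending at day 7, while no schedule is given for lithium with MDI. These 6 arrays served to estimate the spread and to measure the lithium difference in cells that this comparison does not use. The submitters used lithium as a model of activated WNT signalling. The labels give neither how long lithium was applied nor the day at which treated and untreated cells were collected, so time in culture and lithium cannot be told apart. All cells are 1 line, and the labels do not tell whether replicates were grown as separate cultures. The p-values therefore describe only the scatter of these samples, and that scatter may be technical.

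The 2 groups lie on different slides. Slide 1 held the 3 preadipocyte arrays and 1 MDI array, and slide 2 held the 3 lithium arrays and the remaining 5. Within the 6 arrays compared, slide and lithium cannot be told apart, and every difference below carries both. The 3 lithium arrays had a median background signal of 19 to 20 against 16.5 to 17 on the preadipocyte arrays, and a summed mouse probe signal of 66586 to 72865 against 103483 to 146288 (exact permutation test, two-sided, p = 0.1 for each, the smallest that 3 against 3 can give). They detected 149 to 166 miRNAs against 138 to 178 (exact permutation test, p = 0.8). Over the tested miRNAs 6 of the 12 arrays had a higher mean correlation to some other group, and the 3 with the lowest mean correlation to their own group are called here the arrays that stood apart. The mean correlation of preadipocyte array 3 was 0.957 to lithium and 0.939 to the other preadipocytes, that of lithium array 1 was 0.960 to MDI and 0.942 to the other lithium arrays, and that of lithium plus MDI array 3 was 0.965 to preadipocytes and 0.924 within its group. The other 3 were MDI array 1, closer to lithium plus MDI, and lithium plus MDI arrays 1 and 2, closer to MDI. Arrays are named as labelled, and whether samples were exchanged was not tested. Results are given with and without the 3 arrays that stood apart. Since these were picked by their likeness to other groups, leaving them out can separate the groups by construction, and the values without them are descriptions that support no call. The closest pairs, preadipocyte arrays 1 and 2 (r = 0.991) and lithium arrays 2 and 3 (r = 0.994), still differed by more than the noise between spots for 86.2% and 67.4% of the 181 probes detected everywhere. That does not tell repeat hybridisations of 1 RNA from separate samples. They were counted as the labels list them. All 8 fibroblast marker miRNAs listed were detected. None of 5 muscle, 5 blood or 3 liver and endothelial markers was, and of 6 epithelial and 4 neural markers only miR-205 and miR-128 were detected on any array.

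Lithium inhibits the kinase GSK3, which otherwise marks beta-catenin for destruction, and so mimics a WNT signal. In preadipocytes, WNT signalling holds back the switch to fat cells. A mature miRNA is cut from one arm of a hairpin and finds target messenger RNAs mainly through its seed, bases 2 to 8, and miRNAs with the same seed share many targets. A large mouse family of similar copies rich in CA repeats includes miR-669, miR-467 and miR-466, known mostly from a cluster in an intron of Sfmbt2.

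The test called 10 miRNAs, and the sequences of 8 of them, from RefSeq on build GRCm38.p6, are shown first because they divide the 10 into kinds. The reference tables matched 127 of the 157 tested miRNAs. miR-466f-3p and miR-466g were not among them. The first 4 below rose with lithium and hold a run of CA or UG repeats. Capitals mark every stretch covered by the letters CACACA or UGUGUG, and the last line is the other arm of the miR-574 hairpin, which did not pass.

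miR-466i-3p: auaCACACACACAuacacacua

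miR-467f: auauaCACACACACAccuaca

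miR-574-3p: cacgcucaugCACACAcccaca

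miR-1187: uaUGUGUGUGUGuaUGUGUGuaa

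miR-574-5p: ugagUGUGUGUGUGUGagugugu

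The other 4 that passed carry no such repeat. They are shown with their seeds in capitals, and for all but miR-155 a tested relative that did not pass follows. miR-193a and miR-193b share the seed ACUGGCC and miR-181b and miR-181a the seed ACAUUCA. The seeds of miR-96 and miR-182, UUGGCAC and UUGGCAA, share all but the last base.

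miR-193a-3p: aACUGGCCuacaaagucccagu

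miR-193b-3p: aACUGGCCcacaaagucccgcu

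miR-96-5p: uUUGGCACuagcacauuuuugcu

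miR-182-5p: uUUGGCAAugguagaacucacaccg

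miR-181b-5p: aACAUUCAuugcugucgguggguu

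miR-181a-5p: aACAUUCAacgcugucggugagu

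miR-155-5p: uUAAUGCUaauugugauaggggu

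CACACA or UGUGUG, searched in the mature strand as written, occurred in 4 of the 6 miRNAs with a sequence that rose, in neither of the 2 that fell, in 4 of the 119 tested that did not pass and in 40 of 1679 mature mouse miRNAs (2.38%). The motifs were chosen with the names of these miRNAs known, and of the 4 carriers that rose miR-466i, miR-574-3p and miR-1187 passed the detection filter only through the lithium arrays, so the counts are a description. miR-466i-3p and miR-467f share a run of 13 bases, and miR-1187 holds runs of 15 and 13 bases that are the reverse complement of miR-466i-3p and miR-467f. Whether their probes also bind one another's target was not tested. The 4 tested without a call were miR-342-3p at a log2 difference of -0.80, let-7b at 0.33, miR-34c* at -0.34 and miR-574-5p at 0.08.

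The hairpins lie apart in the genome. On GRCm38.p6, miR-466i-3p is at chr13:17747552-17747573 within the span of Cdk13, miR-467f at chr11:69635419-69635439 within Fxr2, miR-574-3p at chr5:64970364-64970385 within Fam114a1 and Tlr6, and miR-1187 at chr5:82798964-82798986 within no annotated gene. miR-193a-3p is at chr11:79712009-79712030 within no other gene, miR-96-5p at chr6:30169506-30169528 within the host transcript Mirc35hg, and miR-155-5p at chr16:84714143-84714165 within its host Mir155hg. miR-181b-5p comes from copies at chr1:137966650-137966673, within no other gene, and chr2:38853845-38853868, within Nr6a1. The tables give gene spans, so exon and intron were not told apart.

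Lithium-treated cells had higher levels of the repeat miRNAs, of miR-193 (now miR-193a-3p) and of miR-96, and lower levels of miR-181b and miR-155. In limma (12 arrays as 4 group means, two-sided, Benjamini-Hochberg adjustment over 157 miRNAs, threshold 0.05), 10 miRNAs passed (6.37%), 8 higher (5.1%) and 2 lower (1.27%). Of the 8 higher, 5 entered the test only through the lithium arrays, where they are high, so the split of the calls is a description only. Among 116 miRNAs detected on all 6 arrays, 4 passed, 3 higher and 1 lower. Of all 157, 71 (45.2%) were above 0. An unadjusted p under 0.05 was reached by 35, 17 higher and 18 lower. The 3 arrays of one group lay wholly above those of the other for 47 (29.9%), with lithium above for 27 (17.2%) and below for 20 (12.7%). The median difference of all tested miRNAs was -0.07 on the log2 scale and the median standard error (SE) 0.34. Values are log2 signals relative to each array's 75th percentile over the 181 probes detected on all 12 arrays, with a floor at -4.97 below which values have no order. In bulk RNA, fewer cells with a miRNA and less of it per cell cannot be told apart.

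The count depended on single arrays and on the scaling. Without the 3 arrays that stood apart 87 of 170 passed, 35 higher and 52 lower, among them all 10. Leaving out preadipocyte array 3 or lithium array 1 alone raised the count to 30 and 31. It was 5 without preadipocyte array 1, 3 without array 2, 6 without lithium array 2 and 0 without lithium array 3 (25 at an unadjusted p under 0.05, smallest limma adjusted p 0.0528). Another scaling moved the split: 11 higher and 11 lower with quantile normalization, 9 and 12 in the authors' value table, 7 and 67 without scaling, and 4 and 74 when the percentile was taken over all mouse probes. The last pair moves every miRNA above the floor by the same amount, -0.69 and -0.90 on the log2 scale, so a sign that changes or holds under them says nothing of a single miRNA. The median of all tested stood at -0.69 and -0.90 there and at -0.43 under normexp. With a model-based background correction of the median spot signals (normexp) none passed, 2 had an unadjusted p under 0.05, and the smallest adjusted p was 0.700. With slide as a block, estimated through the MDI arrays alone, 5 passed, all higher, 4 of them among the 10 and the fifth miR-1196 (2.63, adjusted p = 0.00343).

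**Figure D1:**
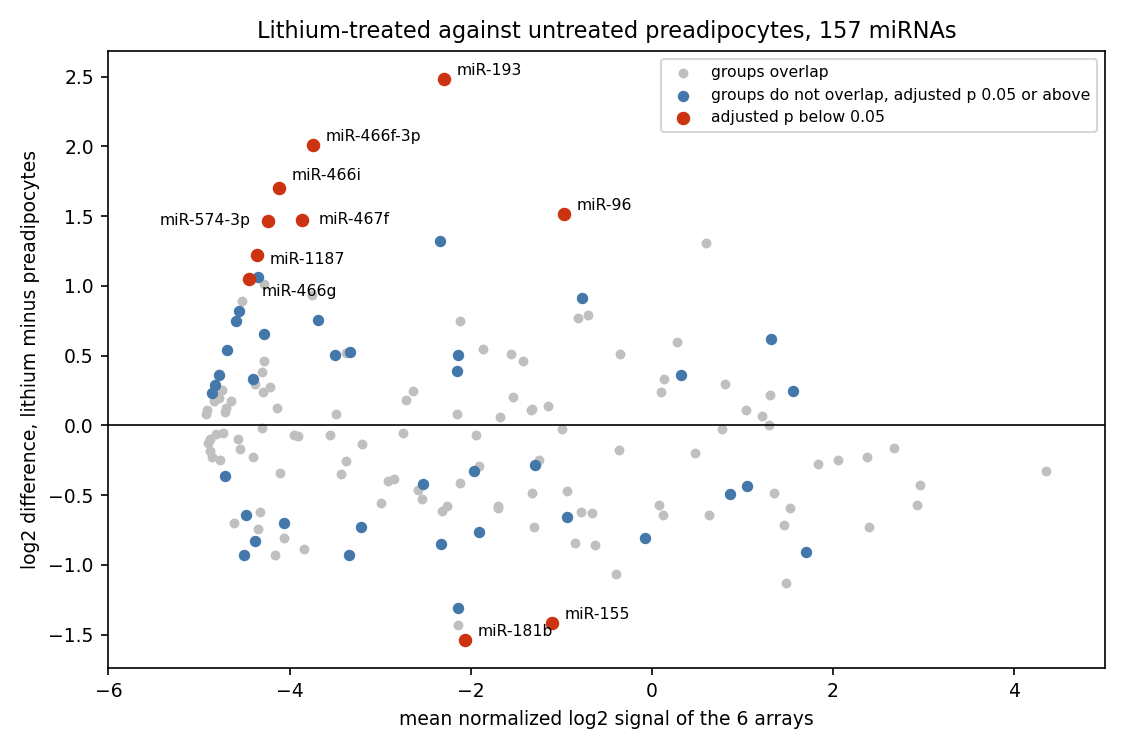
Each point is 1 of 157 tested miRNAs, with the mean normalized log2 signal of the 6 arrays on the x axis and the log2 difference, lithium minus preadipocytes, on the y axis. The 10 red points passed the test (limma adjusted p below 0.05), blue points mark groups that did not overlap without passing, and 6 of the 8 that rose lie at the dim left side.

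The 5 tested members of the CA-repeat family were all higher with lithium. The array held 39 members of the family, of which some array detected 10, and 5 were tested, 3 of them only because the lithium arrays detected them. Of these 5, 4 rose, and the median difference was 1.48 against -0.07 for all tested miRNAs, a description only, since the filter kept 3 members for being detected where they are high. The other 34 were not tested, so nothing is known of the family as a whole. Under normexp the direction of the family median turned to -0.11, against -0.43 for all tested.

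miR-466f-3p read -4.57, -4.97 and -4.70 on the preadipocyte arrays and -2.66, -2.88 and -2.68 on the lithium arrays. The groups were far apart and the lithium arrays lay close together. The rise was 2.01 (SE 0.35, 4.02-fold, limma adjusted p = 0.00712). miR-466i read -3.14, -3.50 and -3.16 with lithium, while all 3 preadipocyte values were at the floor, so its rise of 1.70 (SE 0.31, adjusted p = 0.00712) is at least 3.25-fold. miR-467f read -4.41, -4.65 and -4.73 without and -3.01, -3.39 and -2.96 with lithium. The groups did not overlap, and it rose by 1.48 (SE 0.31, 2.78-fold, adjusted p = 0.0113). miR-466g was at the floor in preadipocytes and read -3.95, -4.34 and -3.47 with lithium, a rise of 1.05 (SE 0.25, at least 2.07-fold, adjusted p = 0.0191). The fifth member, miR-669f, went from the floor to between -4.52 and -3.92 without passing (0.82, adjusted p = 0.133).

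Outside the family, miR-574-3p and miR-1187 showed the same picture. miR-574-3p was at the floor on all preadipocyte arrays and read -3.27, -3.94 and -3.29 with lithium, a rise of 1.47 (SE 0.31, at least 2.77-fold, limma adjusted p = 0.0113). miR-574-5p, cut from the same hairpin, read -2.01, -2.06 and -2.51 without and -1.95, -2.11 and -2.27 with lithium. The 5p groups overlapped, at a difference of 0.08 with a 95% interval of -0.52 to 0.69. The difference between the arms was not tested. miR-1187 rose from the floor to -3.89, -3.70 and -3.65, by 1.22 (SE 0.27, at least 2.33-fold, adjusted p = 0.0168). For miR-1187, miR-574-3p, miR-466g and miR-466i the probe was detected on 1 preadipocyte array, array 3, and on all 3 lithium arrays.

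These 6 dim miRNAs moved with technical measures whose part in the rise was not tested. Background was higher on every lithium array, as given above, while the median negative control signal after subtraction was lower there, 1.62 to 3.37 against 3.44 to 4.66 (exact permutation test, p = 0.1). Of the 6, only miR-467f passed the filter other than through the lithium arrays alone. Under normexp miR-466g turned to -0.34, miR-1187 to -0.29, miR-574-3p to -0.19, miR-466i to -0.11 and miR-467f to -0.06, and miR-466f-3p stood at 0.12 (adjusted p 0.748 to 0.944). The median of all tested miRNAs was -0.43 under normexp, below each of these 6. The MDI group, split over both slides, had 1 array on slide 1. For all 8 miRNAs that rose it lay above the mean of the MDI arrays on slide 2, as for 91 of the 157 tested. Slide 2 minus slide 1 ran from -1.20 for miR-466f-3p to -0.082 for miR-466g and -0.022 for miR-96, with slide 2 values at or near the floor for the dim ones. With slide as a block miR-466f-3p was at 3.21, miR-466i at 2.67, miR-467f at 2.52 and miR-574-3p at 2.25 (limma adjusted p 0.00343 to 0.0215), while miR-1187 and miR-466g, at 1.32 and 1.13, did not pass (adjusted p = 0.31). Without the 3 arrays that stood apart the 6 rose by 0.83 (miR-466g) to 1.86 (miR-466f-3p).

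Single arrays decided some of these calls. All 6 missed the threshold without lithium array 3 (limma adjusted p 0.0528 to 0.109). miR-574-3p and miR-467f also missed it without preadipocyte array 2, miR-466g without preadipocyte array 1 or 2, and miR-1187 without either of those or lithium array 2 (adjusted p 0.0560 to 0.0867). The sizes hardly moved, and with 1 array left out the lowest was 0.84, of miR-466g. The all-probe percentile moves every miRNA above the floor by -0.90, so calls lost under it are not particular to these miRNAs. There miR-574-3p was at 0.80, miR-467f at 0.58 and miR-1187 at 0.58, none passing (limma adjusted p 0.0646 to 0.223). In the authors' value table miR-1187 was at 1.06 (adjusted p = 0.107) and miR-466g at 2.86.

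**Figure D2:**
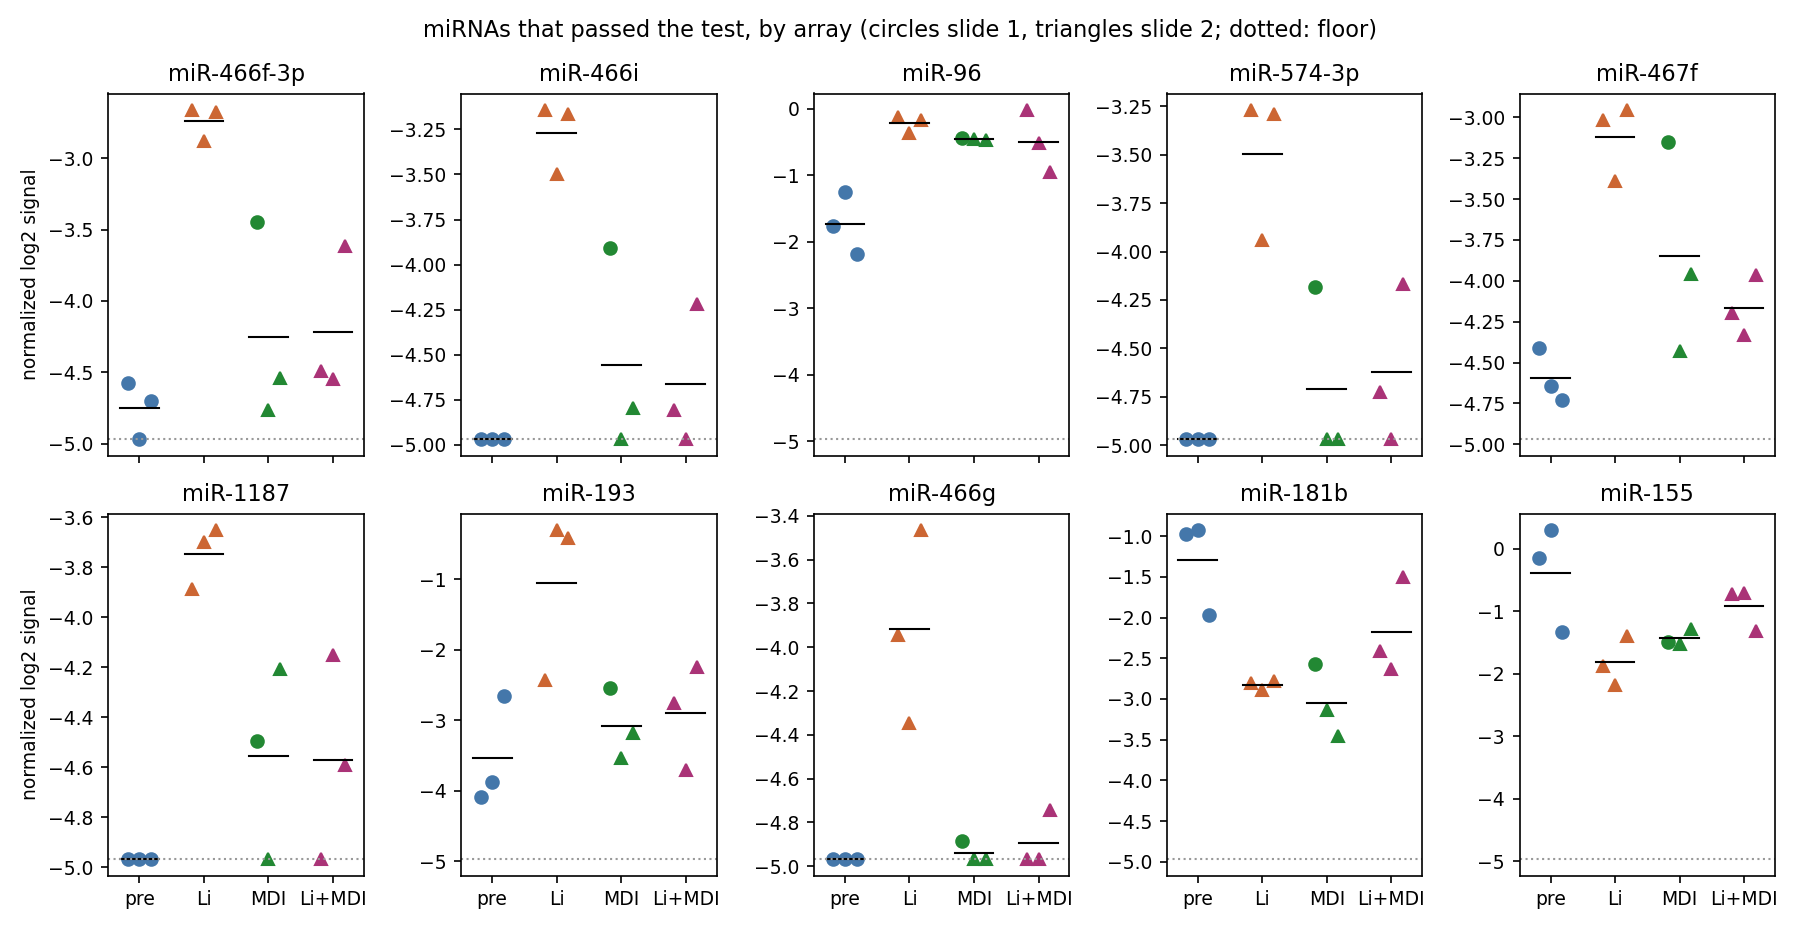
Normalized log2 signal of the 10 miRNAs that passed, on each of the 12 arrays, by group (pre, preadipocytes; Li, lithium); bars are group means, circles slide 1 and triangles slide 2, the dotted line is the floor, and each panel has its own y axis. The MDI array on slide 1 lies above or among the slide 2 MDI arrays, and miR-466i, miR-1187, miR-466g and miR-574-3p sit at the floor on all 3 preadipocyte arrays.

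miR-193, which with miR-365 and miR-193b is linked to brown fat cell differentiation, rose most. It read -4.09, -3.87 and -2.66 on the preadipocyte arrays and -2.43, -0.31 and -0.42 on the lithium arrays. The groups were separated by a narrow gap, between preadipocyte array 3 and lithium array 1, the arrays that stood apart. The rise was 2.49 (SE 0.57, 95% interval 1.25 to 3.72, 5.60-fold, limma adjusted p = 0.0173). Removing all 3 arrays that stood apart put the rise at 3.59. That value is a description only, since the choice of arrays can separate the groups by construction. miR-193 lost the call without preadipocyte array 1 or 2 or lithium array 2 or 3 (2.11 to 2.32, adjusted p 0.0789 to 0.108). The call was also lost with slide as a block (3.30, adjusted p = 0.262).

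Its relatives lay in the same direction without passing. miR-193b, with the same seed, read -2.70, -3.12 and -1.65 without and -2.11, -1.33 and -1.79 with lithium, a difference of 0.75 (SE 0.38, adjusted p = 0.252) in overlapping groups. Preadipocyte array 3 was again the highest of its group. miR-365 differed by 0.55 (adjusted p = 0.329) and miR-455, also linked to brown fat, by -0.93 (adjusted p = 0.205) with all lithium arrays below. The brown fat list thus had 3 of 4 tested members higher and 1 called, against 45.2% higher and 6.37% called among all tested, with a median of 0.65 against -0.07.

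miR-96 belongs to the cluster of miR-183, miR-96 and miR-182, transcribed together and best known from sensory cells, and was detected on all 6 arrays. It read -1.75, -1.25 and -2.19 without and -0.12, -0.36 and -0.17 with lithium. The lithium arrays lay close together and above every preadipocyte array. It rose by 1.51 (SE 0.30, 2.85-fold, limma adjusted p = 0.0105), and its second probe differed by 1.64. It fell short of the test without lithium array 3 (1.47, adjusted p = 0.0659) and with slide as a block (1.53, adjusted p = 0.31), its size being kept in the last. It also fell short with the all-probe percentile (0.62, adjusted p = 0.107), which moves every miRNA above the floor alike. Without the 3 arrays that stood apart the rise was 1.21. For the other miRNAs that passed, each dimmer probe differed by less than the brightest, the one reported. That of miR-193 differed by 1.14 and that of miR-466i by 0.62, both from the floor.

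The other members of the cluster did not pass. miR-182 read -2.69, -2.45 and -3.88 in preadipocytes and -1.88, -1.51 and -1.65 with lithium, higher by 1.32 (SE 0.45, adjusted p = 0.111). Lithium lay above on every array without the difference passing. It was 0.96 with the 3 arrays that stood apart left out, a description only. miR-183 read -0.93, -0.57 and -2.64 without and -0.75, -1.47 and -1.57 with lithium. Its groups overlapped at 0.12 (SE 0.49, 95% interval -0.94 to 1.18), preadipocyte array 3 being the low one. Without the 3 arrays miR-183 stood at -0.79, the opposite sign from miR-96 and miR-182. Differences between the 3 members were not tested.

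miR-181b, known from lymphocyte and vascular biology, was lower with lithium. It read -0.97, -0.93 and -1.97 in preadipocytes and -2.81, -2.89 and -2.78 with lithium. The lithium arrays were nearly equal, and preadipocyte array 3 lay nearest to them. miR-181b fell by 1.54 (SE 0.37, 2.90-fold lower, limma adjusted p = 0.0191), and fell by 1.91 without the 3 arrays that stood apart. The block on slide left -0.80 (adjusted p = 0.652), and it missed the threshold without preadipocyte array 1 or 2 or lithium array 2 or 3 (-1.58 to -1.35, adjusted p 0.0710 to 0.113). miR-181a, with the same seed and encoded beside it, read -1.29, -1.51 and -1.80 without and -2.20, -2.55 and -2.13 with lithium. Its groups did not overlap either, at -0.76 (adjusted p = 0.252).

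miR-155, an inflammation-linked miRNA that inhibits fat cell differentiation in culture, also fell. It read -0.15, 0.30 and -1.34 in preadipocytes and -1.87, -2.18 and -1.40 with lithium. The groups all but met, at preadipocyte array 3 and lithium array 3. It fell by 1.42 (SE 0.38, 2.67-fold lower, limma adjusted p = 0.0382) and by 1.88 without the 3 arrays that stood apart. The call was lost without any 1 of 6 arrays: preadipocyte array 1 or 2, lithium array 2 or 3, MDI array 2 or lithium plus MDI array 1 (-1.64 to -1.07, adjusted p 0.0506 to 0.238). It was also lost with slide as a block (-1.49, adjusted p = 0.363) and in a fit of the 6 arrays alone (-1.48, adjusted p = 0.0731). Of the other inflammation-linked miRNAs, miR-146a was at -0.93 (adjusted p = 0.252) and miR-146b at 0.79 (adjusted p = 0.582).

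**Figure D3:**
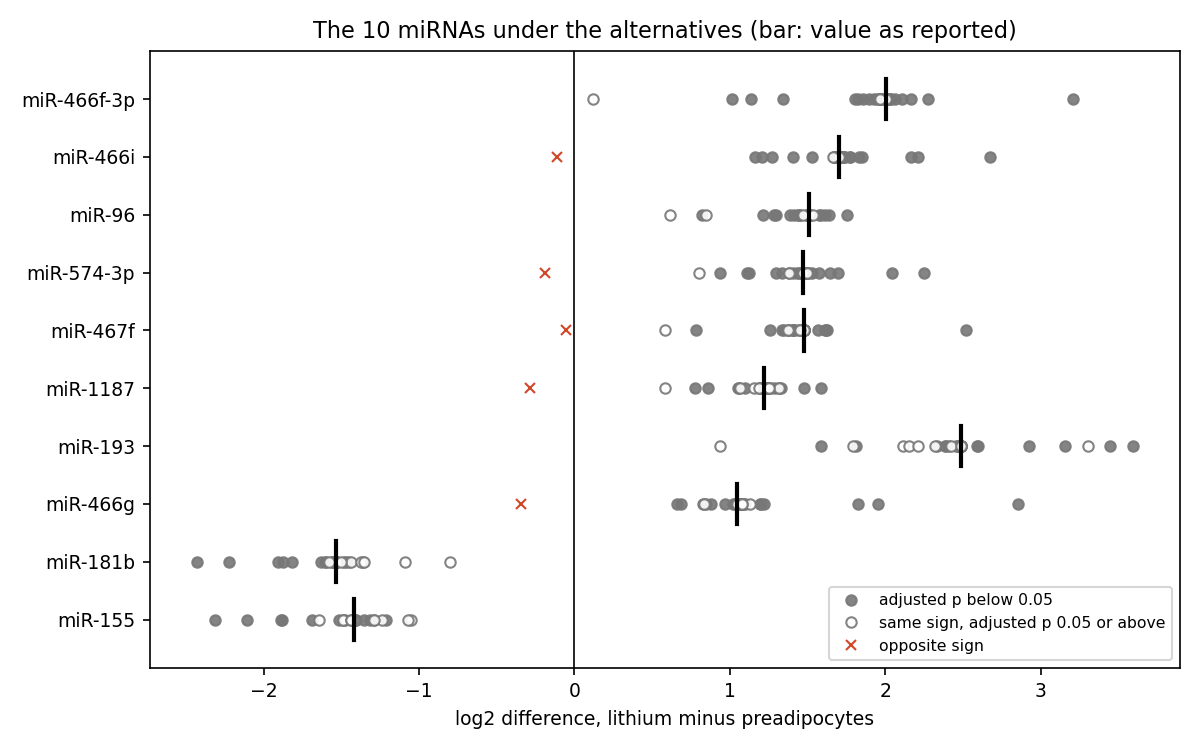
For each of the 10 miRNAs, the log2 difference (x axis, lithium minus preadipocytes) under each alternative, with black bars for the value as reported; filled circles passed at an adjusted p below 0.05, open circles kept the sign without passing, and crosses changed sign. The 5 crosses, between -0.34 and -0.06, all come from normexp, where the median of all tested miRNAs was -0.43.

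Below the threshold, the 8 higher and 8 lower miRNAs with the smallest p among those with separate groups gave a second tier. The higher were miR-30a, miR-182, miR-1196, miR-192, miR-27a, miR-669f, miR-31* and miR-30e*, at 0.62 to 1.32 (limma adjusted p 0.111 to 0.236). Of them 5, miR-1196, miR-192, miR-669f, miR-31* and miR-30e*, were below 0 under normexp, where the median of all tested was -0.43. miR-30a, which promotes fat cell differentiation, read -1.33, -1.31 and -1.06 without and -0.99, 0.15 and -0.12 with lithium, lithium array 1 lying nearest to the preadipocytes. Its difference was 0.91 (SE 0.30, adjusted p = 0.111), and 1.32 without the 3 arrays that stood apart. miR-27a, an inhibitor of fat cell differentiation, read 0.94, 1.06 and 1.01 without and 1.77, 1.55 and 1.55 with lithium. Both groups were tight, at a difference of 0.62 (SE 0.23, adjusted p = 0.124) that was -0.07 without scaling and -0.27 with the all-probe percentile, where all miRNAs are lowered alike. The lower were miR-361, let-7i, miR-185, miR-532-5p, miR-494, miR-128, miR-652 and miR-455, at -1.31 to -0.66 (adjusted p 0.0567 to 0.205). miR-361 came closest to the threshold, at -1.78, -1.72 and -2.21 without and -2.56, -2.85 and -2.86 with lithium (-0.85, SE 0.24). let-7i, which like all of its family restrains growth-promoting transcripts, read 2.13, 2.74 and 1.60 without and 1.56, 1.00 and 1.19 with lithium, where preadipocyte array 3 lay just above lithium array 1 (-0.91, SE 0.29, adjusted p = 0.110). miR-128, the one neural marker tested, was at the floor on all lithium arrays and detected on all 3 preadipocyte arrays (at least 1.85-fold lower, adjusted p = 0.133).

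The miRNAs with the strongest signals overlapped between the groups. miR-21, abundant in fibroblasts, read 4.44, 4.99 and 4.10 without and 4.72, 3.69 and 4.14 with lithium, at -0.33 (limma adjusted p = 0.553). miR-125b-5p differed by -0.57, miR-199a-3p by -0.43, miR-23a by -0.73, let-7f by -0.16 and let-7a by -0.23 (adjusted p 0.209 to 0.724), and lithium arrays 2 and 3 were the 2 lowest of the 6 for miR-125b-5p and miR-23a. With quantile normalization miR-199a-3p, let-7f and let-7a were at 0 or above (up to 0.24), so no direction is given for them. That setting puts miR-21, the brightest miRNA, at 0 by construction and says nothing of it. Since the groups of miR-21 overlapped, no direction is given for it either.

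Among families, none besides those above had a member that passed. The medians below stand beside those of all tested, -0.69 without scaling, -0.43 under normexp and -0.09 with slide as a block. All 5 tested miR-30 members lay above the median of all tested miRNAs, 4 of them above 0, with miR-30a at 0.91, miR-30c at 0.77, miR-30b at 0.51 and miR-30e at 0.24. Their median was 0.51, and -0.18 without scaling. All 6 tested members of the growth-linked miR-17-92 cluster and its relative on the X chromosome were higher, led by miR-20b and miR-20a at 0.51 each, miR-19b at 0.39 and miR-17* at 0.18. Their median of 0.28 became -0.18 without scaling and -0.24 under normexp. The list of miR-15, miR-16, miR-195 and miR-497 had 4 of 5 higher (median 0.36, and -0.33 without scaling), among them miR-195 at 0.53, miR-15a at 0.52 and miR-16 at 0.36, with miR-15b at -0.20. All 5 tested members of the cluster of miR-322, miR-503 and miR-351 were higher (median 0.46, but -0.08 without scaling, -0.44 under normexp and -0.29 with slide as a block), 4 of them tested only through the lithium arrays. miR-322 read -1.28, -0.94 and 2.05 without and 1.03, 1.26 and 1.47 with lithium. Preadipocyte array 3 exceeded every lithium array for this miRNA, so its difference of 1.31 had an SE of 0.72 (adjusted p = 0.298). Leaving out the 3 arrays that stood apart, array 3 among them, gave 2.45, a direction that the choice of arrays fixes. miR-503, from the same cluster, was at the floor on preadipocyte arrays 1 and 2, at -2.74 on array 3 and at -3.44 to -3.13 with lithium.

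Among the families with medians below that of all tested were let-7, miR-99 with miR-100 and miR-125, miR-23 with miR-27 and miR-24, miR-34, and miR-221 with miR-222. Of 9 let-7 members 7 were lower (median -0.29), with let-7e at -1.13, let-7i at -0.91, let-7d at -0.71 and let-7g at -0.49. All 5 members of the miR-99, miR-100 and miR-125 group, encoded beside let-7 genes, were lower (median -0.57), miR-99b by -0.73, miR-125a-5p by -0.63, miR-125b-5p by -0.57 and miR-100 by -0.32. In the miR-23, miR-27 and miR-24 clusters 5 of 6 were lower (median -0.58), miR-23b at -1.07, miR-23a at -0.73 and miR-24 at -0.59, while miR-27a, cut from the same transcript as miR-23a, was the one higher. That median turned to 0.36 with slide as a block. The p53-regulated miR-34 list had 4 of 5 lower (median -0.57), with miR-34a at -0.65, miR-34b-5p at -0.62, miR-34c at -0.57 and miR-34c* at -0.34. miR-221 and miR-222, a pair that drives proliferation, stood at -0.85 and -0.46. None of these members passed (limma adjusted p 0.110 to 0.632 for those named). Against the median of all tested, the place of the let-7 median changed with the setting. It was lower with slide as a block (-0.58 against -0.09), without scaling (-0.98 against -0.69) and with the all-probe percentile (-1.19 against -0.90). With quantile normalization the 2 were nearly equal (-0.11 against -0.10). The let-7 median was the higher in the authors' value table (-0.03 against -0.06) and under normexp (-0.30 against -0.43). From the Hox clusters, miR-10b and miR-10a were lower on every lithium array, at -0.80 and -0.36, and miR-196a differed by 0.89 in overlapping groups (adjusted p 0.225, 0.495 and 0.382).

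Lists grouped by function are read against 45.2% higher and 6.37% called among all tested miRNAs. Their medians stand beside -0.07 for all tested, or -0.69 without scaling and -0.10 with quantile normalization. Of 12 tested miRNAs that promote fat cell differentiation, 8 were higher and none passed (median 0.38, and -0.31 without scaling), with miR-30a and miR-30c given above, miR-107 at 0.60 and miR-210 at -0.58. Of 10 that inhibit it, 4 were higher and miR-155 fell (median -0.15, and 0.02 with quantile normalization), beside miR-221, miR-27a and miR-15a. The list linked to WNT signalling had 6 of 14 higher and none called (median -0.30), with miR-320 at -0.88. In the list linked to beta-catenin and GSK3 control 7 of 13 were higher, miR-96 rose and miR-181b and miR-155 fell (median 0.12, and -0.58 without scaling). The list of miRNAs tied to lithium in earlier work had 5 of 11 higher and miR-155 as its one call (median -0.28). Lists share members, so these counts overlap.

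**Figure D4:**
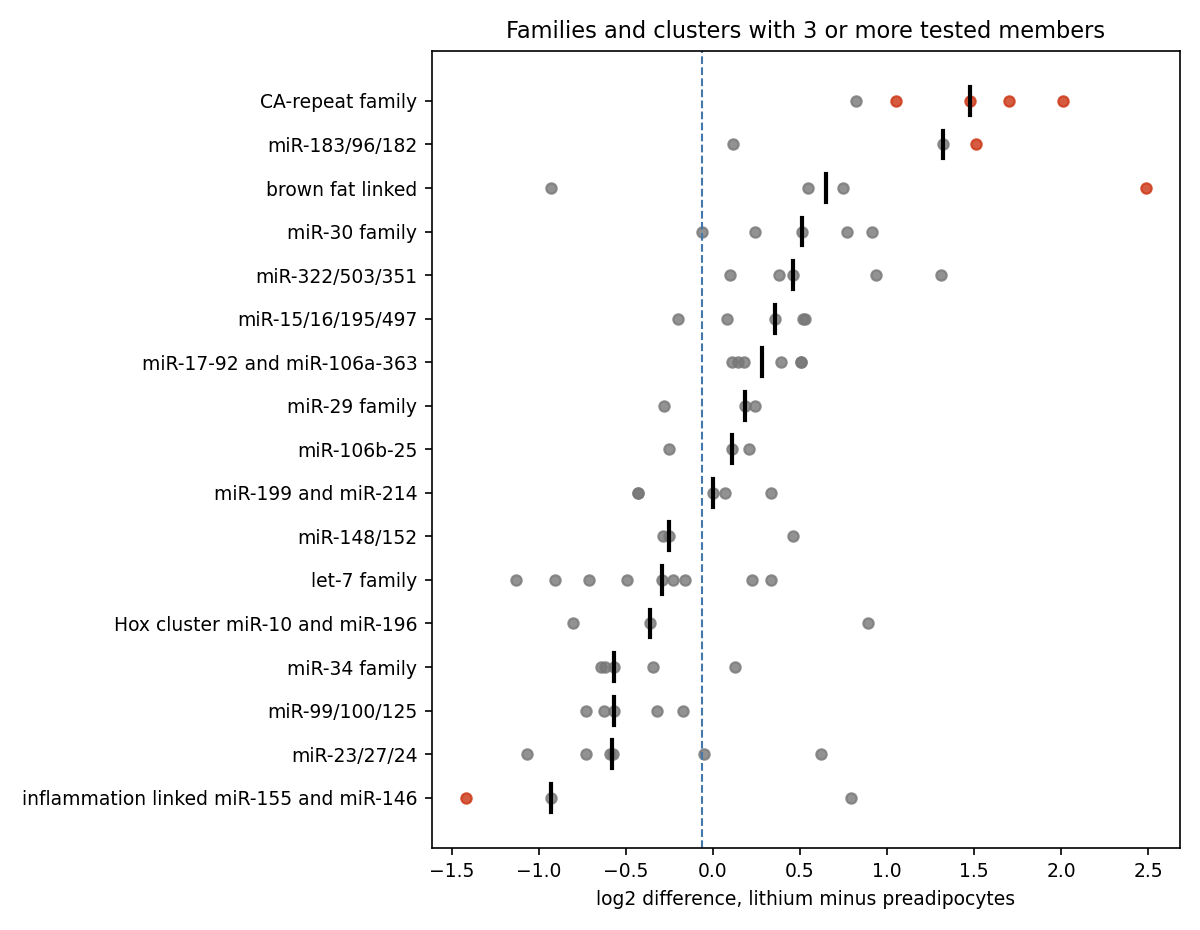
Log2 difference (x axis, lithium minus preadipocytes) of every tested member of the families and clusters with 3 or more tested members, red where the member passed at an adjusted p below 0.05; black bars are medians and the dashed line is the median of all 157 tested miRNAs, -0.07. The CA-repeat family and the miR-183 cluster have medians above 1, while medians between 0 and 0.65 fall below 0 without scaling, which moves all miRNAs above the floor by -0.69.

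Arms of one hairpin gave a further view of the same transcripts. Both arms were tested for 18 hairpins and their differences had the same sign in 13. miR-30a and miR-30a* were at 0.91 and 1.01. miR-31 and miR-31* were at -0.47 and 0.75, and miR-29b and miR-29b* at 0.24 and -0.62. Differences between arms were not tested. Of 17 passenger strands tested 8 were higher and none passed.

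Cells induced with MDI showed no called lithium difference. Lithium plus MDI against MDI, which shares no array with the comparison above, gave 0 of 157 passing in limma (0%), 6 at an unadjusted p under 0.05, a smallest adjusted p of 0.781, and separate groups for 19 (12.1%). Of the 8 miRNAs that rose in preadipocytes 4 were above 0 there, all by less than their SE: miR-193 at 0.18 (SE 0.57), miR-574-3p at 0.09 (SE 0.31), miR-466g at 0.05 (SE 0.25) and miR-466f-3p at 0.03 (SE 0.35). miR-96 stood at -0.03 (SE 0.30), with -0.44, -0.46 and -0.47 on the MDI and -0.02, -0.51 and -0.96 on the lithium plus MDI arrays. MDI means lay near those of lithium without MDI for miR-96 (-0.46 against -0.22), miR-181b (-3.05 against -2.83) and miR-155 (-1.44 against -1.82). For the others that passed, the MDI mean lay further from the lithium mean. miR-181b and miR-155, lower with lithium in preadipocytes, were at 0.87 (SE 0.37) and 0.52 (SE 0.38). All 3 lithium plus MDI arrays lay on slide 2 but 1 of the 3 MDI arrays on slide 1, so these differences carry some of the slide too. Against the mean of the MDI arrays on slide 2, lithium plus MDI read -4.22 against -4.65 for miR-466f-3p and -2.90 against -3.36 for miR-193. For miR-96 it read -0.49 against -0.47, for miR-467f -4.17 against -4.20 and for miR-1187 -4.57 against -4.59. For miR-181b and miR-155, which fell in preadipocytes, it read higher, -2.18 against -3.30 and -0.92 against -1.41. These differences were not tested.

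The difference between these lithium effects was tested as an interaction. None passed (0% of 157), 35 had an unadjusted p under 0.05 and the smallest limma adjusted p was 0.0612. That value was reached by miR-466f-3p (-1.98), miR-466i (-1.81), miR-467f (-1.79), miR-181b (2.41) and miR-185 (1.34). The interaction was -1.55 for miR-96 (adjusted p = 0.0621), 1.94 for miR-155 (0.0621), -1.38 for miR-574-3p (0.0865), -1.23 for miR-1187 (0.0865) and -2.30 for miR-193 (0.119). Without preadipocyte array 3 the interaction count was 26, and without lithium array 1 it was 5.

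**Figure D5:**
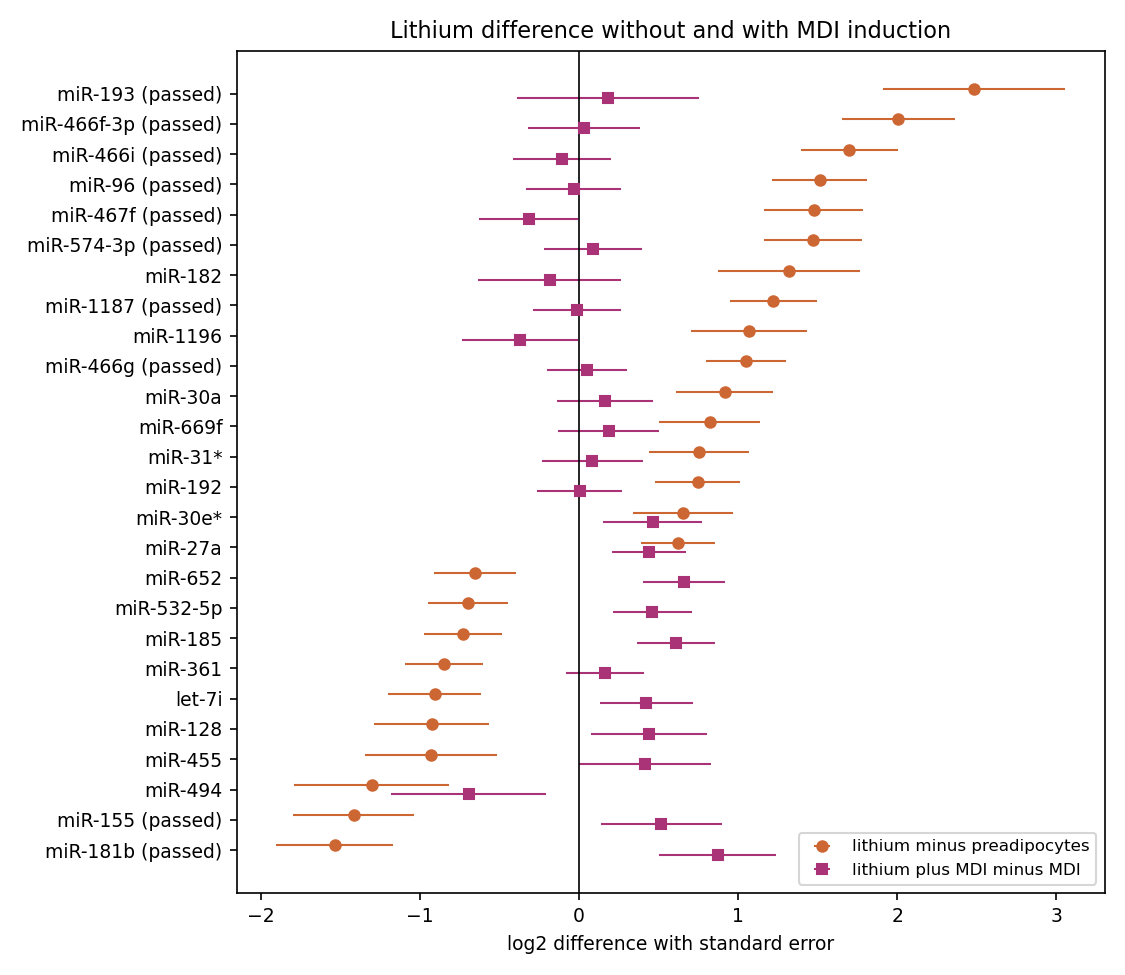
Log2 lithium difference with its SE (x axis) in preadipocytes (circles) and in MDI-induced cells (squares) for the 10 miRNAs that passed and the 16 next with separate groups. In preadipocytes the values run from -1.54 to 2.49, and in MDI-induced cells from -0.69 (miR-494) to 0.87 (miR-181b).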

How the data were processed

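Total RNA labelled with Cy3 was hybridised to single-colour Agilent miRNA arrays. The deposited scanner files give spot intensity, background-subtracted by Agilent Feature Extraction (10.5.1.1 per the file headers, 9.5.3 per the submitters' processing notes) and not normalized between arrays. The authors also deposited a value table read as log2, whose columns share a maximum and so look quantile normalized. Its treatment of low signals is not given in the sources used here, and it was an alternative only.

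Outlier spots were left out and the spots of a probe averaged. Signals were scaled to the 75th percentile of 181 mouse probes detected on every array, floored at the 5th percentile of detected values, and log2 was taken. A probe was detected when over 50% of its spots exceeded background clearly, and the brightest probe stood for each miRNA. Of 611 mouse miRNAs, 157 with detection throughout at least 1 group were tested, 16 of them through the lithium arrays alone. limma 3.58.1 (R 4.3.3) fitted 4 group means. On simulated data of 157 miRNAs it recovered 60% of changes of 1 log2 unit and 96.3% of 2, with 3 wrong calls among 44. The simulated noise was independent and normal, with no floor and no arrays that stood apart. These rates therefore do not give the recovery in the real data. The number of arrays limits the precision. Figures used matplotlib 3.10.9.

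The text names every miRNA that passed, the next 8 in each direction with separate groups, the 5 brightest per group and up to 4 members per list. Members, lists and tests were chosen with earlier results of these data known. Array names were matched by hand to current miRNA names.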

Additional observations from a re-analysis of the deposited data

Results flagged for a closer look

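For let-7i, miR-185, miR-532-5p and miR-652 every lithium array lay below every preadipocyte array, while every lithium plus MDI array lay above every MDI array. They are named for that opposite order, so a positive interaction follows from the choice. Of all 157 tested, 20 (12.7%) had lithium wholly below in preadipocytes. With MDI, 19 (12.1%) had separate groups in either direction. The interaction, the lithium difference in MDI-induced cells minus that in preadipocytes, was 1.33 for let-7i, 1.34 for miR-185, 1.16 for miR-532-5p and 1.32 for miR-652. It did not pass for any of them (limma adjusted p 0.0865, 0.0612, 0.0865 and 0.0621).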

How the results depend on the processing

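Of 31 alternatives, 15 kept the count of called miRNAs within 1.5 times 10. It was 100 with array weights (41 higher, 59 lower; the weights stopped short of convergence and may be imprecise), 87 without the 3 arrays of lowest correlation to their own group, which can separate groups by construction, 78 with the all-probe percentile, 74 unscaled, 22 with quantile normalization, 21 in the authors' value table, 5 with slide as a block, 4 of 116 among miRNAs detected on all 6 arrays, and 0 under normexp or with no filter (611 tested, 36 at an unadjusted p under 0.05, smallest limma adjusted p 0.0827). Leaving out 1 array gave 0 to 31. The interaction gave 0 to 26 calls with 1 array left out, 2 with quantile normalization, 4 with slide as a block and 4 with the replicate block. Lithium within MDI gave 0 in all 10 alternatives run.

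Signs reversed under normexp for miR-466i (-0.11), miR-574-3p (-0.19), miR-467f (-0.057), miR-1187 (-0.29), miR-466g (-0.34), miR-1196 (-0.31), miR-192 (-0.41), miR-669f (-0.42), miR-31* (-0.22) and miR-30e* (-0.34). They reversed with the all-probe percentile for miR-192 (-0.054), miR-27a (-0.27), miR-31* (-0.14) and miR-30e* (-0.24), and without scaling for miR-27a (-0.068) and miR-30e* (-0.037). These last 2 settings move every miRNA above the floor alike, by -0.90 and -0.69. Under normexp the median of all tested was -0.43, below every value listed for that setting. It also added an offset of 50 to the signals and put the floor at -2.93 in place of -4.97. The cause of the normexp reversals was not tested.

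Replicate numbers were not used to pair the samples. Deviations of same-numbered preadipocyte and lithium arrays correlated at -0.39 to 0.47, and 6 of 12 arrays correlated best with their own number. Whether same-numbered arrays belong together is not settled by these values. A fit with the replicate block called 9 miRNAs, 8 higher and 1 lower; miR-155 was lost.

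Slide, lithium and unknown time in culture cannot be separated, only 157 of 611 miRNAs were bright enough to test, and 9.02% of tested values lay at the floor. Absent calls among dim miRNAs say nothing of their levels.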
